A study of Homo sapiens with 8 samples.

Results

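The genes of the extracellular matrix described here are a list of 53 genes that encode collagen chains, laminin chains and nidogens, adhesive glycoproteins, fibrillins and fibulins, proteoglycans and lysyl oxidases. They were compared between CD10-A375 and mock-A375 melanoma cells. The probes of the members were found by gene symbol in the platform annotation. The list itself was chosen with earlier results of these data known. Of the 53 genes, 52 had at least 1 probe, and they are 52 of the 20046 genes and 86 of the 47322 probes of the array. LAMA3, which encodes a laminin alpha chain of epithelial basement membranes, was not analysed here.

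A375 is an established human melanoma line. CD10, encoded by MME, is a cell surface metallopeptidase. CD10-A375 cells carried the plasmid pCXN2.1 (+) with the open reading frame of human CD10, whereas mock-A375 cells had received the same vector without insert, and stable transfectants were selected in G418. The CD10-A375 cells had in addition been sorted for CD10 on their surface. Total RNA of each group was hybridised to 4 Illumina HumanHT-12 v4 bead arrays, which the sample descriptions call biological replicates. Only 1 transfected population of each kind is described, and the p-values below therefore reflect variation among cultures and not among separate transfections.

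The extracellular matrix is a meshwork that cells secrete and then hold on to through integrins and other receptors. Interstitial matrix is built from fibrils of collagen I, III and V, whereas basement membranes are sheets of laminin and collagen IV networks linked by nidogens. Matricellular glycoproteins such as tenascin C, SPARC and the thrombospondins do not form the scaffold but change how cells attach to it, and small proteoglycans such as biglycan and lumican sit on collagen fibrils. In melanoma the matrix is made by the tumour cells as well as by fibroblasts.

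With a detection p of at most 0.01, a CD10-A375 array detected 15977 to 16937 probes and a mock-A375 array 15930 to 16709. Across the 19550 probes detected on at least 1 array, which were the probes tested, the correlation of log2 signals was 0.991 to 0.993 for pairs of arrays of the same group and 0.962 to 0.968 for pairs of different groups. The file headers give the CD10-A375 arrays one run of letters and the mock-A375 arrays another, so whatever the letters stand for cannot be told apart from the group. None of the 4 probes of MME was detected on any array (lowest detection p 0.114). Where these probes lie in the transcript, and whether the insert contained their targets, is not known from the sources used here, so MME is no check of the labels. Of the melanocyte markers, MITF, SOX10, PAX3 and EDNRB were detected, whereas PMEL, MLANA, TYR, TYRP1, S100B and KIT were not.

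Matrix genes moved in both directions. Of the 52 genes, 34 had a detected probe and were tested, each by its brightest detected probe. In CD10-A375, 13 were higher and 11 were lower than in mock-A375 at a limma adjusted p under 0.05, and 10 did not pass the test. These 24 genes are 70.6% of the 34, against 41.8% of all 11303 tested genes, of which 19.9% were higher and 21.9% lower. The arrays of the 2 groups did not overlap for 24 of the 34 members (70.6%), against 40.0% of all tested genes. The median difference of the 34 members was 0.19 on the log2 scale, with -0.03 over all tested genes, and the median size of the difference irrespective of direction was 0.51, with 0.22 over all tested genes. A difference of 0.5 or more on the log2 scale that passed the test was found in 17 members (10 higher, 7 lower), which is 50% of those tested against 19.6% of all tested genes. One of 1 or more was found in 7 members (5 higher, 2 lower), or 20.6%, against 5.84%. The members, and the further lists below, were chosen with earlier results of these data known. Their shares therefore describe the lists and are no test against all genes. With a SAM t-test in place of limma, LAMC1, LAMB2, LAMA5, COL4A1, COL6A2, MFGE8, EFEMP2 and LOXL3 did not keep their call (adjusted p 0.0533 to 0.346). Both tests use the same difference of means, so the direction could not change. LAMB3 and COL13A1 were detected in CD10-A375 arrays only and COL1A2 and LUM in mock-A375 arrays only, so these 4 entered the test through the group in which they were brighter. RNA was taken from whole cultures, in which fewer cells of a kind and less RNA per cell cannot be told apart. Differences are given as CD10-A375 minus mock-A375 on a log2 scale with an offset of 16 added to each signal, which understates the change of dim genes. Values per array are log2 signals in the order of replicates 1 to 4.

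**Figure D1:**
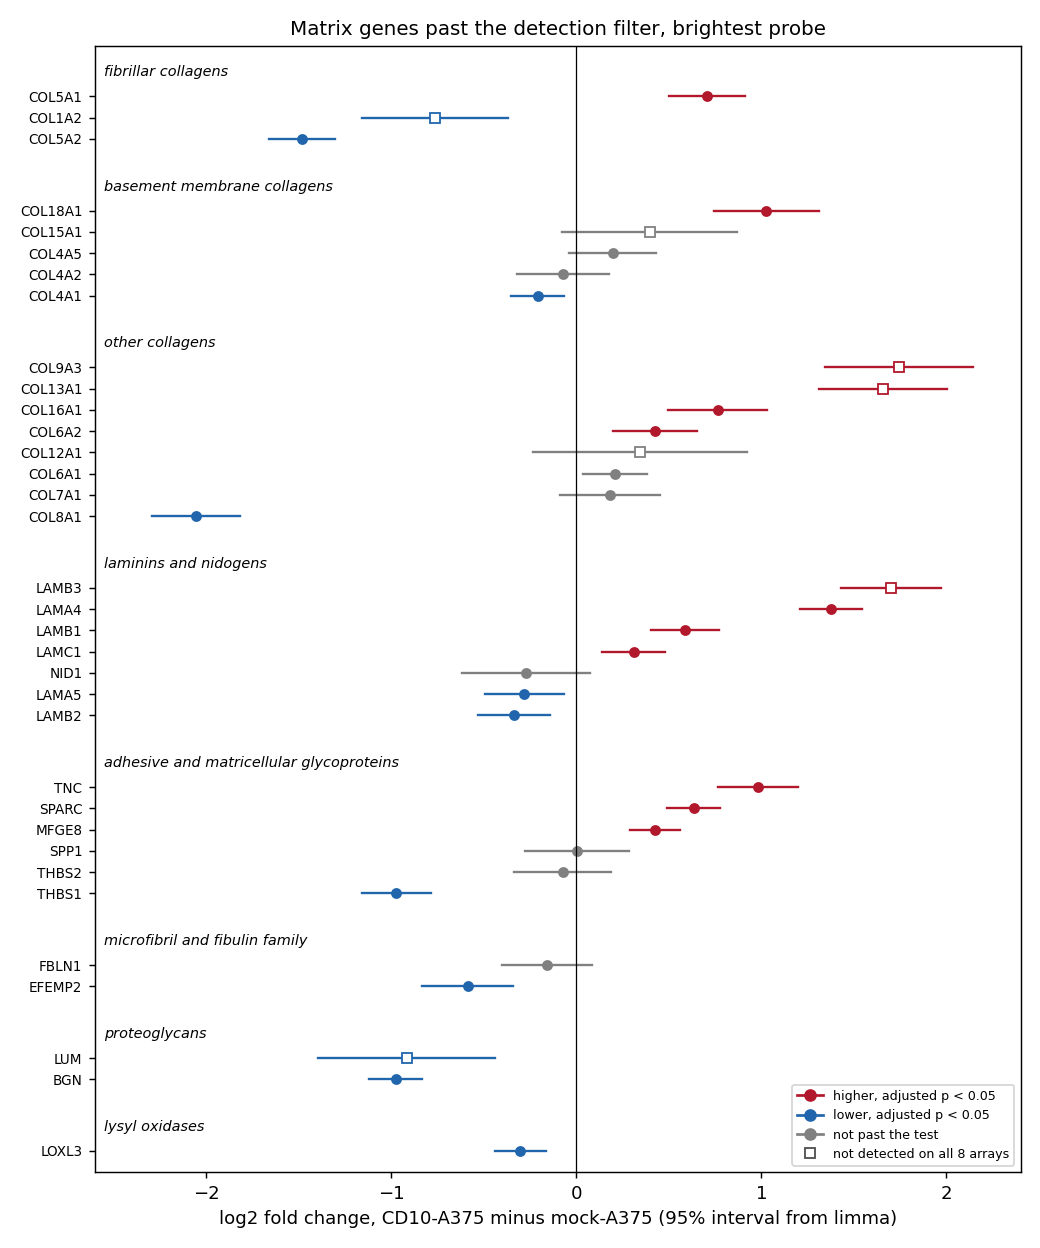
Difference between CD10-A375 and mock-A375 (x axis, log2 scale, 95% interval from limma, 4 arrays per group) for the 34 matrix genes past the detection filter, grouped by role and represented by their brightest probe. Red marks the 13 genes higher, blue the 11 lower and grey the 10 that did not pass the test, and open squares mark probes not detected on all 8 arrays.

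**Figure D2:**
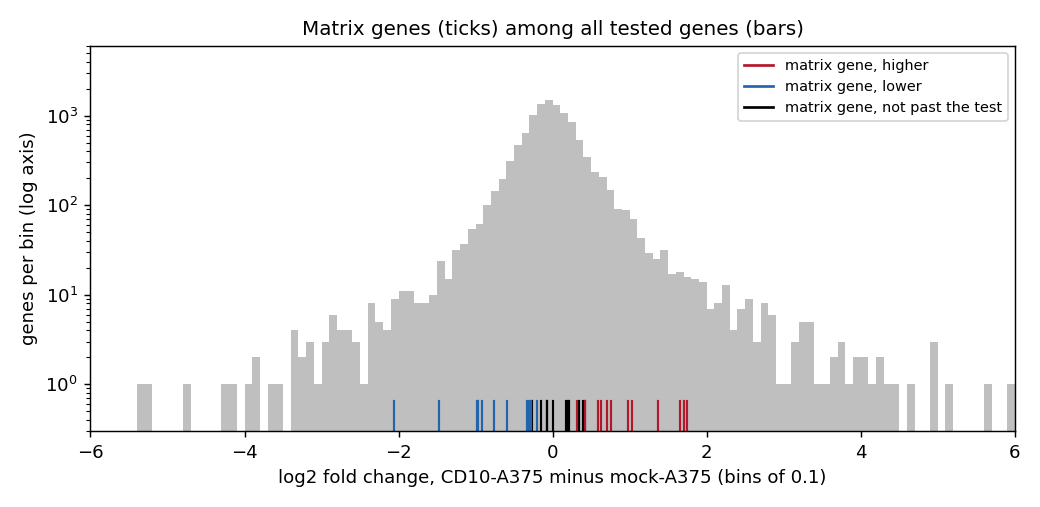
Distribution of the log2 difference of all 11303 tested genes (bars, log axis of genes per bin) with the 34 matrix genes as ticks. The ticks run from -2.05 (COL8A1) to 1.74 (COL9A3), inside the range of all genes of -5.31 to 5.92.

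Laminins are trimers of an alpha, a beta and a gamma chain, and the chains that were measured moved in opposite directions. LAMA4, LAMB1, LAMC1 and LAMB3 rose in CD10-A375 and LAMA5 and LAMB2 fell. LAMA4 encodes the alpha chain of laminins found in the basement membranes of blood vessels, muscle and fat. Its log2 signal was 10.47, 10.35, 10.64 and 10.37 on the CD10-A375 arrays and 9.15, 9.12, 8.94 and 9.13 on the mock-A375 arrays. Every CD10-A375 array lay above every mock-A375 array. The difference was 1.37 ± 0.08 (SE, adjusted p = 1.25e-10), or 2.59-fold, and a second LAMA4 probe gave 1.05 ± 0.13 (adjusted p = 3.60e-06). LAMB1 and LAMC1 encode the widely used beta and gamma chains that pair with LAMA4 and with other alpha chains. The signal of LAMB1 was 10.45, 10.25, 10.37 and 10.25 in CD10-A375 and 9.94, 9.88, 9.58 and 9.57 in mock-A375, without overlap. LAMB1 was higher by 0.59 ± 0.09 (adjusted p = 3.25e-05), whereas its other detected probe, at 0.15 (adjusted p = 0.372), did not pass the test. LAMC1 was higher by 0.31 ± 0.08 (adjusted p = 0.00522), again without overlap between the groups.

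LAMB3 encodes the beta chain of the laminin that anchors epidermis to dermis. It was detected on all 4 CD10-A375 arrays, at 7.08, 7.43, 7.20 and 7.14, and on none of the mock-A375 arrays, whose values were 5.66, 5.39, 5.54 and 5.46. CD10-A375 thus exceeded mock-A375 in LAMB3 by at least 2.80-fold. In this bound the mock-A375 level of each array is the larger of the LAMB3 signal and the dimmest detected signal of that array, averaged on the log2 scale. The limma adjusted p of 6.71e-09 belongs to the log2 difference of 1.70 and not to the bound. The probe passed the detection filter through CD10-A375 alone. The other LAMB3 probes were not detected on any array. LAMA5, the alpha chain of most adult basement membranes, was lower by 0.28 ± 0.10 (adjusted p = 0.0378) with arrays of the groups overlapping, and it lost the call without CD10-A375 replicates 2 or 4 or mock-A375 replicates 1 or 4 (adjusted p 0.105 to 0.144). LAMB2, the beta chain of synaptic and kidney basement membranes, was lower by 0.34 ± 0.09 (adjusted p = 0.00796), without overlap. Nidogen 1 (NID1), the link between laminin and collagen IV, was not past the test at -0.27 (95% interval -0.62 to 0.07, adjusted p = 0.212). LAMA1, the embryonic alpha chain, and NID2 were not detected on any array.

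**Figure D3:**
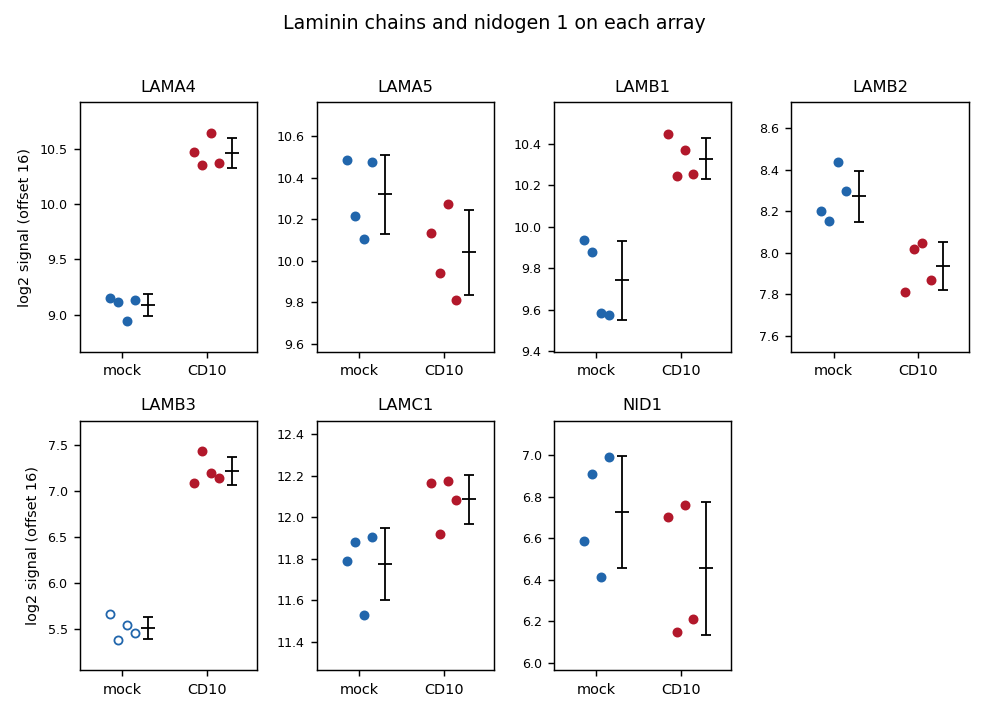
Log2 signal (y axis, offset 16, a separate scale in each panel) of the 6 tested laminin chains and of NID1 on each of the 4 mock-A375 (blue) and 4 CD10-A375 (red) arrays, with mean and SD as bars; open points mark a group in which not every array detected the probe. LAMA4, LAMB1, LAMB3 and LAMC1 lie higher in CD10-A375 with no overlap, LAMB2 lies lower with no overlap, and LAMA5 and NID1 overlap.

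The 250 bases upstream of the RefSeq starts of LAMA4, LAMB1 and LAMC1 (GRCh38.p14) are shown because these chains can assemble into 1 trimer and rose together. They lie at chr6:112254568-112254817 on the minus strand, chr7:108003162-108003411 on the minus strand and chr1:183023170-183023419 on the plus strand, and each is written 5′ to 3′ toward its gene. Both strands were searched for the GC box GGGCGG, the TATA core TATAA, the AP-1 element TGANTCA and the TEAD element GGAATG, which are found in 42.6%, 18.9%, 6.57% and 11.9% of all 35116 RefSeq windows of this length. Capitals mark matches, in either orientation.
LAMA4: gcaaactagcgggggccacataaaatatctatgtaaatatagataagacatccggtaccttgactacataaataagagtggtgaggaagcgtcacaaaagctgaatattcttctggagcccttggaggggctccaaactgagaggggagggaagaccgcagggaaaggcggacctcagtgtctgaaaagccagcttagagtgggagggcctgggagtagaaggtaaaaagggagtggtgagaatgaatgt
LAMB1: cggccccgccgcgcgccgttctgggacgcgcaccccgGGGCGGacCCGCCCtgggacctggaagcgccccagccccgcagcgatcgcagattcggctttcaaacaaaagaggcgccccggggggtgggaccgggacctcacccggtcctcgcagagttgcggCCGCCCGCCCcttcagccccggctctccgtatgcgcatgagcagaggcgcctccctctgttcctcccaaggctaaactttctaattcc
LAMC1: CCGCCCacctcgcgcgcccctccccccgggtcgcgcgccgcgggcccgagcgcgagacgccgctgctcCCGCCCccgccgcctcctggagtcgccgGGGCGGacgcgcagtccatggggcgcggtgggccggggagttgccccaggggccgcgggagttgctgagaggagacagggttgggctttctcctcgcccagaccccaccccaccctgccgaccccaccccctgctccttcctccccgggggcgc
The LAMA4 window held none of these letters, LAMB1 held 4 GC boxes, of which a pair overlapped, and LAMC1 held 3. The GC content was 48.4% for LAMA4, 70.4% for LAMB1 and 79.6% for LAMC1, with a median of 66.4% over the windows of the 40 members that have an entry and of 58.0% over all windows.

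Fibrillar collagens make the rope-like fibrils of interstitial matrix, and 3 of the 6 were tested. COL5A1 and COL5A2 encode the chains of collagen V, which nucleates fibrils of collagen I, and they moved in opposite directions. COL5A1 rose in CD10-A375, with signals of 7.95, 8.04, 8.05 and 7.85 against 7.31, 7.08, 7.31 and 7.36 in mock-A375. COL5A2 fell, from 9.44, 9.24, 9.27 and 9.42 in mock-A375 to 7.86, 7.92, 7.96 and 7.70 in CD10-A375. Neither gene had overlapping groups. COL5A1 was higher by 0.71 ± 0.10 (adjusted p = 1.27e-05) and COL5A2 had a difference of -1.48 ± 0.09 (adjusted p = 1.22e-10), which makes the mock-A375 mean 2.79-fold the CD10-A375 mean. COL1A2, the alpha 2 chain of collagen I, was at the edge of detection, being detected on 1 mock-A375 array and on none of CD10-A375. Its signal was 4.88, 4.67, 4.84 and 4.87 in CD10-A375 and 5.58, 5.56, 5.84 and 5.33 in mock-A375 (adjusted p = 0.00354), and no fold is given. COL1A2 entered the test through that 1 mock-A375 array, so this p-value is no support for a fall. A second COL1A2 probe was not detected on any array. COL1A1, the other chain of collagen I, COL3A1 and COL11A1 were not detected on any array.

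Among the collagens of basement membranes, COL18A1 rose and COL4A1 fell slightly. COL18A1 encodes the core of a heparan sulfate proteoglycan whose end fragment is endostatin. It was measured at 7.79, 7.73, 7.64 and 7.39 in CD10-A375 and at 6.88, 6.47, 6.30 and 6.80 in mock-A375, so that the lowest CD10-A375 array was above the highest mock-A375 array. The difference was 1.03 ± 0.13 (adjusted p = 7.88e-06), or 2.04-fold. COL4A1 and COL4A2 encode the chains of the common collagen IV network and lie next to each other on chromosome 13. COL4A1 was lower by 0.21 ± 0.07 (adjusted p = 0.0229) and COL4A2 was not past the test at -0.07 (95% interval -0.32 to 0.18, adjusted p = 0.682). The call of COL4A1 was lost without CD10-A375 replicates 2 or 4 or mock-A375 replicates 1 or 3 (adjusted p 0.0538 to 0.0857). COL4A5, a chain of the collagen IV of kidney and skin, at 0.20, and COL15A1, a relative of COL18A1 detected on 3 arrays, at 0.40, also did not pass (95% intervals -0.04 to 0.43 and -0.08 to 0.87). COL4A6, the neighbour of COL4A5 on chromosome X, was not detected.

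COL4A1 and COL4A2 are read away from each other, and the 126 bases between their RefSeq starts, at chr13:110307158-110307283 of GRCh38.p14, are shown on the plus strand, from COL4A1 toward COL4A2, as the stretch both genes share.
COL4A1 to COL4A2: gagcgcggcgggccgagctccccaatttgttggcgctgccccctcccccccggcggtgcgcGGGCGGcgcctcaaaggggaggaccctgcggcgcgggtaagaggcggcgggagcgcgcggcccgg
The capitals mark 1 GC box, and no TATA core, AP-1 or TEAD element was found in it. The difference between the changes of the 2 genes was not tested.

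The remaining collagens held both the member with the lowest difference, COL8A1, and the one with the highest, COL9A3. The highest place depends on how dim probes are processed, since without normexp COL13A1 gave 2.24 and COL9A3 1.79. COL8A1 encodes a short-chain collagen that forms lattices in vessel walls and in the cornea. Its signal was 7.82, 7.68, 7.53 and 7.15 in CD10-A375 and 9.58, 9.56, 9.65 and 9.59 in mock-A375. The mock-A375 arrays were tightly grouped and lay far above CD10-A375. COL8A1 was lower by 2.05 ± 0.11 (adjusted p = 6.17e-11), so that the mock-A375 mean was 4.15-fold that of CD10-A375, and it ranked 63rd from the bottom of the 11303 genes. A second probe, detected on 3 CD10-A375 arrays, gave -1.44 ± 0.14 (adjusted p = 1.59e-07).

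COL9A3, COL13A1 and COL16A1 rose. COL9A3 encodes a chain of collagen IX, a collagen on the surface of cartilage fibrils. It was detected on all 4 CD10-A375 arrays, at 7.11, 6.87, 7.28 and 7.61, and on 1 mock-A375 array, at 5.10, 5.58, 5.22 and 6.00 over the group. The groups did not overlap, and the difference was 1.74 ± 0.19 (adjusted p = 7.88e-07). No fold is given, since 3 of the 4 mock-A375 arrays did not detect the probe. COL13A1 encodes a collagen that spans the cell membrane and is found at adhesion sites and neuromuscular junctions. It was detected on every CD10-A375 array, at 6.21, 6.57, 6.29 and 6.28, and on no mock-A375 array, at 4.83, 4.63, 4.65 and 4.60. Computed as for LAMB3, the bound on its rise was at least 1.52-fold. The limma adjusted p of 2.55e-07 belongs to the log2 difference of 1.66, and this probe too passed the detection filter through CD10-A375 alone. COL16A1, a collagen that associates with fibrils and binds integrins, was measured at 9.04, 9.20, 9.65 and 9.35 in CD10-A375 and at 8.73, 8.37, 8.28 and 8.80 in mock-A375. Its groups did not overlap, and it was higher by 0.76 ± 0.13 (adjusted p = 1.04e-04).

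Collagen VI forms beaded filaments around cells from chains of COL6A1, COL6A2 and COL6A3. COL6A2 was higher by 0.43 ± 0.11 (adjusted p = 0.00458), and its other detected probe gave 0.09 (adjusted p = 0.727). COL6A1, its neighbour on chromosome 21, had a difference of 0.21 with no overlap but missed the threshold (95% interval 0.04 to 0.38, adjusted p = 0.0559), and COL6A3 was not detected. COL7A1, the collagen of anchoring fibrils, at 0.18 (95% interval -0.09 to 0.45), did not pass. The probes of COL12A1, a collagen of dense connective tissue, had differences of 0.34 and -0.62, neither past the test, and each was detected on no more than 2 arrays.

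**Figure D4:**
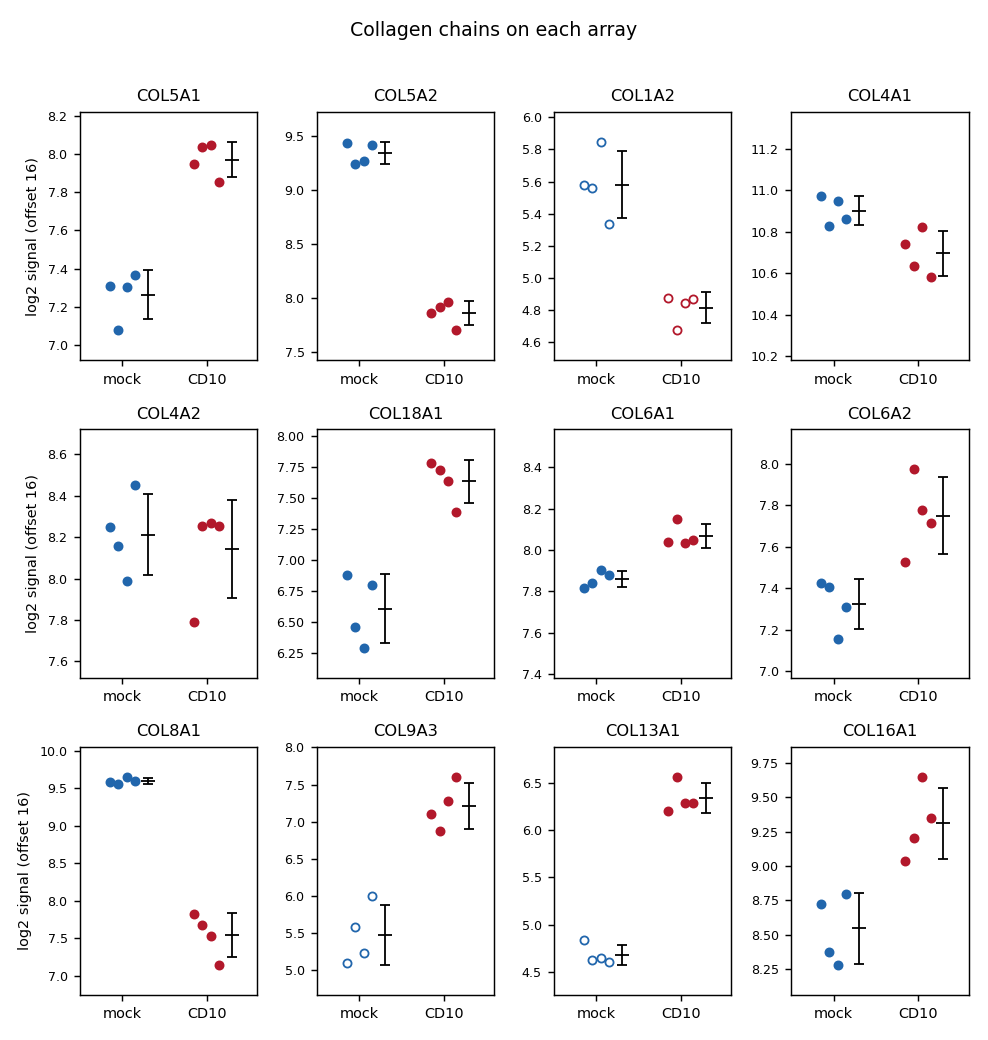
Log2 signal (y axis, offset 16, a separate scale in each panel) of 12 collagen chains on the 4 mock-A375 (blue) and 4 CD10-A375 (red) arrays, with mean and SD as bars; open points mark a group in which not every array detected the probe. COL5A1, COL18A1, COL9A3, COL13A1 and COL16A1 are higher in CD10-A375 and COL5A2 and COL8A1 are lower, with a difference of 0.71 for COL5A1 and of -1.48 for COL5A2.

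Of the adhesive and matricellular glycoproteins, tenascin C (TNC), SPARC and MFGE8 rose and thrombospondin 1 (THBS1) fell. TNC encodes a large glycoprotein that loosens cell attachment to fibronectin and is abundant in wounds and tumours. Its signal was 11.43, 10.81, 11.21 and 11.04 in CD10-A375 and 10.15, 10.18, 9.98 and 10.25 in mock-A375, without overlap. TNC was higher by 0.98 ± 0.10 (adjusted p = 4.44e-07), or 1.98-fold, and its second probe gave 0.98 ± 0.11 (adjusted p = 1.94e-06). SPARC, a collagen-binding glycoprotein that reduces cell spreading, was measured at 10.94, 10.97, 10.92 and 10.82 in CD10-A375 and at 10.44, 10.25, 10.20 and 10.22 in mock-A375. The groups were apart, by 0.63 ± 0.07 (adjusted p = 7.81e-07). MFGE8, which bridges dying cells to integrins of phagocytes, was higher by 0.43 ± 0.07 (adjusted p = 4.22e-05). THBS1 encodes an inhibitor of blood vessel growth that binds CD36 and CD47 and activates latent TGF-beta. It was at 9.26, 8.90, 9.16 and 8.92 in CD10-A375 and at 10.17, 10.00, 9.90 and 10.07 in mock-A375. All CD10-A375 arrays were below all mock-A375 arrays, with a difference of -0.97 ± 0.09 (adjusted p = 7.94e-08).

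Osteopontin (SPP1), a phosphorylated glycoprotein of bone and tumours that binds integrins, gave 0.00 (95% interval -0.28 to 0.28), and thrombospondin 2 (THBS2), the close relative of THBS1, gave -0.07 (95% interval -0.34 to 0.19), neither past the test. Fibronectin (FN1), the main adhesive glycoprotein of interstitial matrix, had 3 probes, none of which was detected on any array (lowest detection p 0.0364). Periostin (POSTN) and matrilin 2 (MATN2) were not detected either.

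The fibrillin and fibulin genes encode parts of microfibrils and elastic fibres. EFEMP2, or fibulin 4, which is needed for elastic fibre assembly, was at 6.92, 7.29, 7.56 and 7.39 in CD10-A375 and at 7.89, 7.89, 7.83 and 7.88 in mock-A375. The spread was wider in CD10-A375 (SD 0.27) than in mock-A375 (SD 0.03), and the groups did not overlap. EFEMP2 was lower by 0.59 ± 0.12 (adjusted p = 6.32e-04). Fibulin 1 (FBLN1) had 3 detected probes. The brightest gave -0.16 (adjusted p = 0.316) and another -0.26 (adjusted p = 0.357). The third was lower by 0.58 ± 0.16 (adjusted p = 0.00915) with arrays of the groups overlapping, so the gene's probes differ in call. FBN1, FBN2 and EFEMP1 were not detected.

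Of the tested proteoglycans, biglycan fell and lumican was at the edge of detection. Biglycan (BGN), a small leucine-rich proteoglycan that binds collagen and can signal when released, was at 10.20, 10.36, 10.10 and 10.26 in CD10-A375 and at 11.25, 11.12, 11.24 and 11.21 in mock-A375. No array of 1 group reached the range of the other, and the difference was -0.98 ± 0.07 (adjusted p = 1.75e-09), a mock-A375 mean 1.97-fold the CD10-A375 mean. Lumican (LUM), which regulates the spacing of collagen fibrils, was detected on 2 mock-A375 arrays and on no CD10-A375 array. Its signal was 4.64, 4.59, 4.92 and 5.30 in CD10-A375 and 5.43, 5.44, 6.26 and 5.97 in mock-A375 (adjusted p = 0.00384), and no fold is given. LUM entered the test through its brighter group, so this p-value is no support for a fall. A second LUM probe was not detected on any array. Decorin (DCN), its neighbour on chromosome 12, and versican (VCAN) were not detected. Of the lysyl oxidases, which cross-link collagen and elastin, LOXL3 was lower by 0.30 ± 0.07 (adjusted p = 0.00129), without overlap, and LOX, LOXL1 and LOXL2 were not detected.

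**Figure D5:**
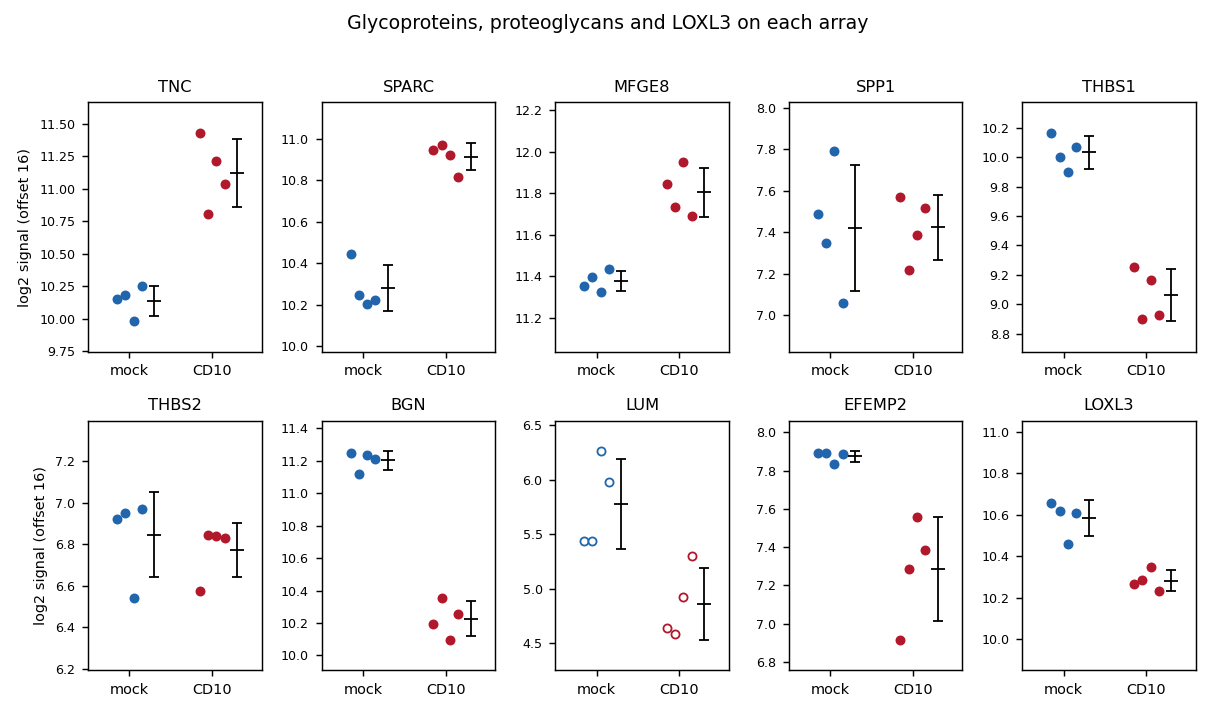
Log2 signal (y axis, offset 16, a separate scale in each panel) of 6 glycoproteins, BGN, LUM, EFEMP2 and LOXL3 on the 4 mock-A375 (blue) and 4 CD10-A375 (red) arrays, with mean and SD as bars; open points mark a group in which not every array detected the probe. TNC, SPARC and MFGE8 are higher in CD10-A375, THBS1, BGN, EFEMP2 and LOXL3 are lower (-0.97 for THBS1 and -0.98 for BGN), and SPP1 and THBS2 overlap.

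The 250 bases upstream of the RefSeq starts of TNC, THBS1 and BGN are shown as those of the glycoprotein and proteoglycan members with the largest differences among those detected on all 8 arrays. They lie in GRCh38.p14 at chr9:115118158-115118407 on the minus strand, chr15:39580829-39581078 on the plus strand and chrX:153494730-153494979 on the plus strand, with the same motifs in capitals.
TNC: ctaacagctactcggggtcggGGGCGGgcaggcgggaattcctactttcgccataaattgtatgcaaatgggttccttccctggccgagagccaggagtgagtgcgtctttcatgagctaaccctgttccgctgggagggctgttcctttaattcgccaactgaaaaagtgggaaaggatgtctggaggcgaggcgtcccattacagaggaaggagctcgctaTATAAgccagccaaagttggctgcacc
THBS1: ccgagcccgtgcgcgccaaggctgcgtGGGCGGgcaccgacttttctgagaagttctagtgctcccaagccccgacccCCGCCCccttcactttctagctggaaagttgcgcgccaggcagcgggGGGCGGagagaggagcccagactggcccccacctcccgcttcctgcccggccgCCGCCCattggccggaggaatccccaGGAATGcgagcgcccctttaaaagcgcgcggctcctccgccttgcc
BGN: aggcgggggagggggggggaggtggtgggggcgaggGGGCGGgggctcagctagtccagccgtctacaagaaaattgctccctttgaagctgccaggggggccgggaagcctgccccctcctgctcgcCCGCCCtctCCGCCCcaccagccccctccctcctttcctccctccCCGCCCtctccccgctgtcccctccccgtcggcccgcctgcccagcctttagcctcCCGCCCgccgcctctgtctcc
The TNC window held 1 GC box and 1 TATA core near its end, THBS1 held 4 GC boxes and 1 TEAD element, and BGN held 5 GC boxes. A match is a run of letters and not a measured binding site.

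Of the 8 members with over 1 detected probe, 7 had differences of 1 sign over their probes, the exception being COL12A1, and none had probes called in opposite directions. Over all 43 tested member probes, 15 were higher and 13 lower, where 36.6% of all tested probes passed the test, 17.3% higher and 19.3% lower. At the thresholds of the study's methods, an unadjusted p under 0.01 with a fold above 2 in either direction, 6 member probes were higher and 3 lower, and 4.96% of all tested probes passed. The 18 genes that were not detected came from all classes, with 3 of the 6 fibrillar collagens, 3 of the 4 lysyl oxidases and FN1 among them. Their signals were within the range of the negative control probes, so expression below the sensitivity of the array could not be seen.

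Genes that modify and assemble collagens were mostly higher where they passed the test. Of 21 tested enzymes and chaperones, 10 were higher (47.6%, against 19.9% of all tested genes) and 2 lower (9.52%, against 21.9%), with a median of 0.21. LOXL4, a lysyl oxidase that is not among the 53 genes, was higher by 1.15 ± 0.06 (adjusted p = 7.08e-11). The collagen prolyl hydroxylase chains P4HA2 and P4HA1 moved apart, at 0.61 and -0.82, and TGM2, a transglutaminase that cross-links matrix proteins, was higher by 0.66. Of 22 tested genes for other collagens and matrix proteins, 7 were higher and 3 lower (median 0.23). The 45.5% that passed the test were close to the 41.8% of all tested genes. The largest differences were those of COL22A1, a collagen of tissue junctions, with a bound of at least 2.32-fold, and of ECM1 at 0.99, the hyaluronan link protein HAPLN1 at 0.94 and the TGF-beta binding protein LTBP3 at 0.80.

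Of 24 tested matrix receptors, 13 were higher (54.2%, against 19.9% of all tested genes) and 2 lower (8.33%, against 21.9%), with a median of 0.35. The fibronectin receptor chain ITGA5 was higher by 1.35 ± 0.07 (adjusted p = 6.98e-11) and ITGB3 by 1.11 ± 0.09 (adjusted p = 2.40e-08). ITGB8, detected in CD10-A375 only, was higher by at least 1.69-fold. The thrombospondin 1 receptor CD36 was detected on all mock-A375 arrays but not in CD10-A375, and the bound on its fall was at least 16.3-fold. Both ITGB8 and CD36 passed the detection filter through their brighter group alone. Their limma adjusted p-values, 8.62e-06 and 1.09e-17, belong to log2 differences of 1.21 and -5.24 and not to the bounds.

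Markers of other cell types were read beside the matrix genes. Of 11 fibroblast markers, 5 were detected, and the summed intensity of the 11, before normalization, was 4363 to 5345 in CD10-A375 and 1801 to 2141 in mock-A375. PRRX1 made up 67.1% to 92.7% of these sums, and without it they were 353 to 494 in CD10-A375 and 589 to 701 in mock-A375. PRRX1 was higher by 1.71 and MEOX2 was lower, whereas PDGFRA, THY1, FAP, TCF21, DPT and PI16 were not detected on any array. TWIST2 was also called lower, but it was at the edge of detection, being detected on 2 mock-A375 arrays and on no CD10-A375 array. No endothelial marker of 8 was detected (sums of 52.2 to 69.4 and 9.3 to 34.7), 2 of 7 leukocyte markers were (CD14 and CORO1A, neither past the test, sums of 157 to 200 and 139 to 237), and of 6 epithelial markers KRT8 and KRT18 were (neither past the test, sums of 310 to 404 and 263 to 339). The 10 melanocyte markers, of which 4 were detected, had a summed intensity of 6196 to 8037 in CD10-A375 and of 4174 to 5421 in mock-A375, 82.7% to 86.9% of it from SOX10, with SOX10 higher by 0.53 and EDNRB by 0.39. The part of these markers in the differences of the matrix genes was not tested.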

How the data were processed

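RNA of CD10-A375 and of mock-A375 was hybridised to Illumina HumanHT-12 v4 arrays, 4 per group and not pooled. Arrays were compiled in GenomeStudio, with version 1 in the submitters' processing notes. For 47322 probes the authors deposited a background-subtracted intensity without normalization between arrays. They also deposited a detection p-value for each intensity, the rank of the probe among negative controls, and a second table of intensities after average normalization (factors 0.883 to 1.04).

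From the intensities without normalization, background was corrected by normexp with parameters inferred from the detection p-values, arrays were quantile normalized, and an offset of 16 was added before log2, using limma 3.58.1 under R 4.3.3. A probe was tested if any of the 8 arrays detected it (detection p not above 0.01), which kept 19550 probes and removed 27772. Groups were compared by limma (lmFit and eBayes with an intensity trend), two-sided, and p-values were adjusted over the 19550 probes by the Benjamini-Hochberg method, with 0.05 as threshold. SAM, the test named in the methods, was written anew, since its package was not installed. Both tests were tested on simulated data.

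In the platform annotation 30113 probes have 1 symbol, 8 several and 17201 none, and probes with several named no gene. Current symbols were taken from RefSeq (GRCh38.p14), which also gave promoters (250 upstream bases for 40 of the 53 members) and gene order. Each gene was represented by its brightest tested probe. Values per array are given for members past the test with an absolute log2 difference of 0.5 or more, and for those detected on all 4 arrays of only 1 group; of each other list up to 4 genes past the test with the largest difference are named. Where no array of a group detected a probe, a bound replaces the fold if all 4 arrays of the other group did. Members and lists were chosen with earlier results of these data known. The number of arrays limits the precision. Alternatives covered normalization, background, offset, filter, intensity trend, test, threshold, replicate block, the choice of probe and the omission of single arrays.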

Additional observations from a re-analysis of the deposited data

Results flagged for a closer look

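In 7 of the 68 groups of 4 arrays examined (34 matrix genes in each cell population), 1 array stood apart from the other 3 by more than Dixon's test allows at the 95% level, and chance alone marks about 1 in 20 groups. The lowest CD10-A375 array was apart for COL1A2 at 4.67 (replicate 2), COL4A2 at 7.79 (replicate 1) and THBS2 at 6.58 (replicate 1), and the highest for COL6A1 at 8.15 (replicate 2). The lowest mock-A375 array was apart for LAMA4 at 8.94, THBS2 at 6.54 and EFEMP2 at 7.83, in each case replicate 3. For EFEMP2 the gap was small, since the nearest array was at 7.88.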

How the results depend on the processing

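Per gene, 17 alternatives were run, all those listed except the methods' thresholds and the mean over a gene's probes. In these the 24 matrix genes past the test kept their direction, and 16 stayed past the threshold wherever they were tested. Among the 16 were LAMB3 and COL13A1, and also COL1A2 and LUM, which were tested in only 15 and 16 of the alternatives. Each of these genes had passed the detection filter through its brighter group alone, so its staying past the threshold is no further support. The direction could not change where only the test, the filter, the intensity trend or the replicate block differed, since the signals were then the same. With the mean over a gene's detected probes, 13 member genes were higher and 12 lower. With SAM, 10 member genes were higher and 6 lower, 12 member probes higher and 7 lower, and 2797 probes in all differed, against 7162 with limma. The calls of LAMC1 (adjusted p 0.225), MFGE8 (0.0941), LOXL3 (0.195), LAMB2 (0.182), COL6A2 (0.120), EFEMP2 (0.0533), COL4A1 (0.346) and LAMA5 (0.286) were lost with SAM. Its p-values are pooled over relabelings of the arrays that include the true one. COL5A2, COL8A1, LAMA4 and LAMB3 all had a SAM adjusted p of 0.0286, not far below the threshold. The cause of the losses was not tested. COL4A1 was also lost without normalization between arrays (0.0572) and without the intensity trend (0.0716), and LAMA5 without the filter on dim probes (0.0513) and without the trend (0.121). At the thresholds of the methods (raw p under 0.01, fold above 2), 5 member genes were higher and 2 lower, 6 member probes were higher and 3 lower, and 969 probes in all passed, by construction fewer. Leaving out each array in turn gave 13 to 13 member genes higher and 9 to 11 lower, 15 to 15 member probes higher and 11 to 14 lower, and 6393 to 6942 probes in all. With the replicate number as a block, 13 member genes were higher and 10 lower, 15 member probes higher and 13 lower, and 6634 probes in all differed; the block ended the call of LAMA5 (0.0523) and changed no other call of a member gene. The correlations of the deviations of same-numbered arrays were -0.009, -0.0496, -0.1893 and 0.0315, so no pairing by number was seen. COL6A1 passed in 3 alternatives, the lowest adjusted p being 0.0355. Values of dim probes moved most, with COL13A1 between 0.95 (offset of 50) and 2.24 (no normexp). Signal over background limits the 18 genes not detected.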
